A study of Mus musculus with 12 samples.

Results

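Very long genes, each spread over 200 kb of genome or more, were followed in mouse liver 6 hours after the alkylating agent methyl methane sulfonate (MMS). The set was given as 38 gene symbols, and a member counted as measured where a probe set on the array was annotated with that symbol alone. Of the 38 genes, 31 were measured, out of 12393 genes measured in all. Immp2l, Magi2, Supt3, Vps13b, Tbc1d5, Fndc3b and Rbms3 were not analysed here. Where a gene had several probe sets, the brightest on average across all 12 arrays stood for it. The genomic span in RefSeq (GRCm38.p6) ran from 216.6 kb for Nfib to 2390.4 kb for Dmd, with a median of 603.85 kb over the 38.

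RNA polymerase II has to pass the whole of a gene, introns included, before a transcript is complete, so a very long gene is slow to transcribe and offers far more template to DNA lesions than a short one. MMS adds methyl groups to DNA bases. Aag, the glycosylase encoded by Mpg, cuts methylated bases such as 3-methyladenine out of DNA and so starts base excision repair. Genes of this length encode many adhesion, guidance and signalling proteins and several transcription factors, and in human cells some of them lie at common fragile sites, stretches of chromosome that break when replication is slowed.

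Liver RNA of C57Bl/6J mice aged 6 to 8 weeks was hybridised to Affymetrix arrays, 1 animal per array, with 3 animals in each of 4 groups. These were Aag knock-out mice given MMS once by intraperitoneal injection at 75 mg/kg, untreated Aag knock-out mice, wild-type mice given the same dose, and untreated wild-type mice. Treated livers were taken at 6 hours. Whether the untreated mice received a vehicle injection, and how the knock-out allele was made, are not stated in the labels.

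The values are log2 expression values, and 3 arrays a group limit the precision of each. Array medians ran from 7.42 to 7.75 and correlations between arrays from 0.962 to 0.995. Mpg itself was lower in every knock-out array (4.95 to 5.75) than in every wild-type array (6.21 to 6.94) at 1 of its probe sets, a difference of -1.17 (two-sided exact permutation test, p = 0.005), the smallest that the 400 regroupings within treatment can give. Its other probe set differed by -0.31 (exact permutation p = 0.04), and where either lies relative to the deleted part is not known here. The 3′ minus 5′ signal at the controls for beta-actin and Gapdh, a measure of RNA and labelling quality, was 1.61 and 1.51 in MMS-treated knock-out arrays 1 and 2, and between 2.00 and 2.66 in all other arrays. The count and median of the members, the changes of the called members and the medians by length in the knock-out are given below with and without those arrays. The 8 measured hepatocyte markers had a mean log2 level of 13.96 to 14.16 in every array, and 0 of them passed the test in either response by limma, also at an unadjusted p under 0.05. That level lies near the highest value on any array, 14.88, and whether the signal saturates there was not tested.

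The start regions of genes that fell in both genotypes are shown first, because these members moved together; Ptprd is not shown. They were taken from RefSeq (GRCm38.p6) and cover 250 bases before to 50 bases after an annotated start, 5′ to 3′. Capitals mark the motifs searched for on both strands, so they can show a reverse complement. The GC box was searched as GGGCGG. For the E-box the letters were CACGTG. The CCAAT box is named by its letters. The TATA box was searched as TATAAA. For the ETS site CGGAAG was used.
Exoc4, chr6:33248878-33249177, plus strand: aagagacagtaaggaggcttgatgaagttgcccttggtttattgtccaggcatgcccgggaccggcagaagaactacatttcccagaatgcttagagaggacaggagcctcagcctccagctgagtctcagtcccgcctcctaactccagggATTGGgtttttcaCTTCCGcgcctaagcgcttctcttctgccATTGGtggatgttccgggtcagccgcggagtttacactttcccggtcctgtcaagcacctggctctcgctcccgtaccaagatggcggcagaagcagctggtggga
Lpp, chr16:24393100-24393399, plus strand: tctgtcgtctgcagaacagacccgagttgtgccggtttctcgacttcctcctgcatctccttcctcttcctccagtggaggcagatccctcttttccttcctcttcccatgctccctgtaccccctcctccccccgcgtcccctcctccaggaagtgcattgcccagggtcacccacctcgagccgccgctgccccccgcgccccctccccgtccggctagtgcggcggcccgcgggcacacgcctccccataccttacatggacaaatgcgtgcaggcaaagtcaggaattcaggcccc
Pard3b, chr1:61638574-61638873, plus strand: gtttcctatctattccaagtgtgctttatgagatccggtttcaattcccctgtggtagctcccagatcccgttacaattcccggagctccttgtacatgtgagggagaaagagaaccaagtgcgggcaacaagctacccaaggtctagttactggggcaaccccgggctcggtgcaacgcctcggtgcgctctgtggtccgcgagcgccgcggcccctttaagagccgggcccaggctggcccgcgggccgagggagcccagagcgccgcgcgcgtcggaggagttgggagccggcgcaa
Ptprm, chr17:67354410-67354709, minus strand: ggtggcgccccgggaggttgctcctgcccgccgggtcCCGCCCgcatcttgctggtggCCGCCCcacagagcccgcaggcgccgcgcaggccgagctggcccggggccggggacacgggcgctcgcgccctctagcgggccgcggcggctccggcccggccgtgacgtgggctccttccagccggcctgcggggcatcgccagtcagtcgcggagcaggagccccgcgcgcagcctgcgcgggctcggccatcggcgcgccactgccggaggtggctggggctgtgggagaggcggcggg
Robo1, chr16:72662899-72663198, plus strand: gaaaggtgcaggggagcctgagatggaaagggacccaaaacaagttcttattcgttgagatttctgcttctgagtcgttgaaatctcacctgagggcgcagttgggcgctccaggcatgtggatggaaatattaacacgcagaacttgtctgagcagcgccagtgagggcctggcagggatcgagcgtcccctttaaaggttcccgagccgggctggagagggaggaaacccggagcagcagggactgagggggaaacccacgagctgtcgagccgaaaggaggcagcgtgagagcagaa
These windows differ from each other. Exoc4 held CCAAT at 2 places and the ETS site at 1, Ptprm held the GC box at 2, and those of Lpp, Pard3b and Robo1 held none of the 5 motifs. The GC content was 56.3% in Exoc4, 57.0% in Robo1, 62.7% in Pard3b, 64.7% in Lpp and 80.7% in Ptprm. The Robo1 window lies 635.6 kb inside the listed gene, at a downstream start. Over the whole set, 38 windows of 23 members were matched, against 32851 windows of 27025 genes in all. The GC box stood in 47.4% of member windows and 35.7% of all windows, CCAAT in 34.2% and 37.4%, TATAAA in 10.5% and 13.6%, the ETS site in 2.6% and 16.9% and the E-box in 0% and 7.2%. Member windows had a median of 13 CpG dinucleotides, against 7 in all windows. No test was made of these shares, and a match describes the letters only.

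In MMS-treated livers the very long genes that changed were all lower, in both genotypes. Robo1, the receptor for Slit guidance cues, was more than 3-fold lower in each, and Exoc4, a subunit of the exocyst that tethers secretory vesicles to the plasma membrane, was 2.89-fold lower in the knock-out and 2.04-fold lower in the wild type. In Aag knock-out livers 10 of 31 members fell and 0 rose (limma, Benjamini-Hochberg adjusted p under 0.05), where 0.815% of all genes fell and 0.888% rose. In wild-type livers 10 of 31 fell and 0 rose, where 5.33% of all genes fell and 2.20% rose. Exoc4, Lpp, Pard3b, Ptprd, Ptprm and Robo1 fell in both, 6 genes or 60% of each list. Cdkal1, Prkce, Sox6 and Fto passed the test only for the knock-out response and Fhit, Tcf4, Wwox and Nfib only for the wild-type response, and 17 members passed in neither. The tests of the difference between the responses are given further on, and none passed.

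The median change of the members on the log2 scale was -0.59 in the knock-out and -0.45 in the wild type, where the median over all 12393 genes was -0.06 in each. Values were negative for 26 of 31 members in the knock-out and for 25 in the wild type, and for 24 in both. Of all genes 56.4% were negative in the knock-out and 57.8% in the wild type. At an unadjusted p under 0.05 in limma there were 22 lower and 2 higher in the knock-out, and 14 lower and 1 higher in the wild type. Of all 12393 genes, 1579 were lower and 1650 higher at that p in the knock-out, and 1940 and 1102 in the wild type. All treated arrays lay below all untreated arrays for 19 members in each genotype (14.6% of all genes in the knock-out and 22.0% in the wild type), and above them for 1 (13.9% and 11.4%). These members above were Ext1 in the knock-out and Zbtb20 in the wild type. Across the 31 members the 2 responses had a Pearson r of 0.62 and a Spearman rank correlation of 0.57, as a description of genes that share the same arrays. In liver tissue, fewer cells of a type and less RNA per cell cannot be told apart for any of these values.

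**Figure D1:**
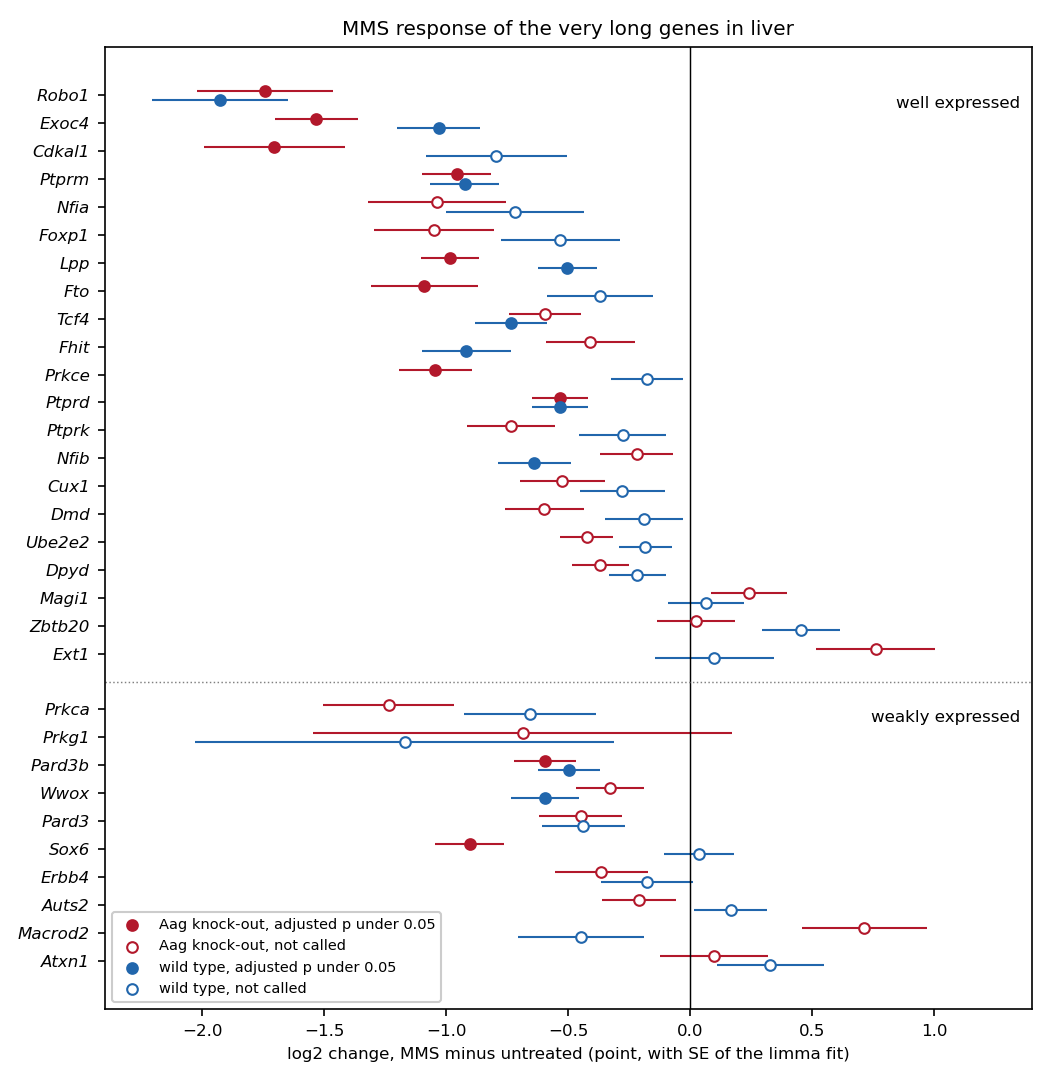
Log2 change after MMS (MMS minus untreated, with the standard error of the limma fit, 3 arrays per group) of the 31 measured very long genes in Aag knock-out and wild-type liver; filled points passed the adjusted threshold of 0.05. All filled points lie left of 0, Robo1 lies near -1.74 in the knock-out and -1.93 in the wild type, and the few members right of 0 are open points.

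The knock-out count depended on single arrays. It was 0 without treated knock-out array 1 or 2 or without untreated knock-out array 1 or 2, and in those 4 fits limma called 0 of all 12393 genes. It was 18 without treated knock-out array 3. Leaving out a wild-type array, which changes only the pooled spread, gave a count of 3 without untreated wild-type array 1, of 2 without array 2 and of 5 without array 3, and of 12 without treated wild-type array 1, of 12 without array 2 and of 6 without array 3. The direction depended less on any array, with 19 to 23 members lower and 1 to 2 higher at an unadjusted p under 0.05 over the 12 fits. Leaving out a wild-type array cannot change the direction in the knock-out. The fits that left out a knock-out array gave the same range by themselves. Without treated knock-out arrays 1 and 2 together, the arrays with the small 3′ minus 5′ signal, the median of the members was -0.43, 12 were lower and 0 higher at an unadjusted p under 0.05, and 0 passed after adjustment, with the lone array 3 taken to vary like the other groups. In that fit limma called 0 of all 12393 genes, so no role group below held a called member in the knock-out. The 10 members that fell with all arrays then had changes of -1.27 to -0.47, and Cdkal1 (-0.82 ± 0.15), Fto (-0.57 ± 0.21) and Robo1 (-1.11 ± 0.29) were those that moved by over 1.5 times. The wild-type count was 3 without untreated wild-type array 1 or 3 or treated array 1. It was 5 without untreated array 2 or treated array 3, and 6 without treated array 2. In these fits 11 to 15 members were lower at an unadjusted p under 0.05 in limma. Exoc4, Ptprm and Robo1 passed in the wild type in all 26 other fits that were run.

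Guidance, adhesion and polarity proteins with the receptor phosphatases held the most called members. Of 9 measured, 5 fell in each genotype and 0 rose by limma, also at an unadjusted p under 0.05. The medians were -0.60 in the knock-out and -0.50 in the wild type. For this and the role groups below, the share of all genes that fell was 0.815% in the knock-out and 5.33% in the wild type. The share that rose was 0.888% and 2.20%. Robo1 stood at log2 7.72, 8.13 and 8.88 in MMS-treated knock-out livers, against 10.13, 9.80 and 10.03 in untreated ones. In wild-type livers it stood at 8.45, 8.43 and 8.15 after MMS, against 10.34, 9.83 and 10.64 untreated. The groups did not overlap, and within the treated knock-out the array with the highest value was array 3. Robo1 fell by 1.74 ± 0.28 (SE; 3.35-fold, adjusted p = 0.0313) in the knock-out, and it fell by 1.93 ± 0.28 (3.81-fold, adjusted p = 0.00556) in the wild type.

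Receptor tyrosine phosphatases span the membrane and remove phosphate from tyrosines at cell contacts. Ptprm stood at 7.76, 7.99 and 7.74 in MMS-treated knock-out livers, against 8.79, 8.65 and 8.93 in untreated ones. It stood at 8.05, 7.85 and 8.25 in MMS-treated wild-type livers, against 8.90, 8.89 and 9.13 in untreated ones. Treated and untreated values were apart by more than the spread within any group, and the decrease was 0.96 ± 0.14 in the knock-out (adjusted p = 0.0264) and 0.92 ± 0.14 in the wild type (adjusted p = 0.00668). Ptprd, with 2270.5 kb the second-longest gene of the set, stood at 11.85, 12.01 and 12.02 in MMS-treated knock-out livers, against 12.47, 12.41 and 12.62 in untreated ones. In wild-type livers Ptprd stood at 11.90, 12.02 and 12.14 after MMS, against 12.61, 12.54 and 12.51 untreated. Again no treated array reached an untreated one, and Ptprd fell by 0.53 ± 0.11 in both genotypes (adjusted p = 0.0489 in the knock-out and 0.0235 in the wild type). Ptprk did not pass at its chosen probe set, with -0.73 ± 0.18 in the knock-out (adjusted p = 0.0601) and -0.28 ± 0.18 in the wild type.

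Lpp, a LIM-domain protein of focal adhesions, stood at 10.62, 10.58 and 10.69 in MMS-treated knock-out livers, against 11.63, 11.62 and 11.60 in untreated ones. In wild-type livers the values were 10.93, 11.35 and 11.20 after MMS, against 11.62, 11.69 and 11.68 untreated. No treated array reached an untreated one, and Lpp fell by 0.98 ± 0.12 in the knock-out (1.98-fold, adjusted p = 0.018) and by 0.50 ± 0.12 in the wild type (1.42-fold, adjusted p = 0.035). Pard3b, a cell polarity protein, stood at 5.90, 6.02 and 5.88 in MMS-treated knock-out livers, against 6.42, 6.58 and 6.59 in untreated ones. It stood at 5.91, 6.34 and 6.07 in MMS-treated wild-type livers, against 6.62, 6.63 and 6.56 in untreated ones. These groups did not overlap either, with decreases of 0.60 ± 0.13 (adjusted p = 0.0488) and 0.50 ± 0.13 (adjusted p = 0.0448). Its relative Pard3 had -0.45 and -0.44, Erbb4, a receptor kinase for neuregulins, -0.36 and -0.18, and Magi1, a scaffold of cell junctions, 0.24 and 0.06 (knock-out, then wild type), and none of these passed.

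In trafficking and enzyme genes 3 of 5 measured members fell in the knock-out and 1 in the wild type, and 0 rose (limma; at an unadjusted p under 0.05, 4 lower and 1 higher in the knock-out and 2 lower and 0 higher in the wild type). Exoc4 stood at 9.35, 9.25 and 9.69 in MMS-treated knock-out livers, against 11.09, 10.84 and 10.97 in untreated ones. The wild-type values were 9.80, 9.62 and 9.94 after MMS, against 10.84, 10.53 and 11.07 untreated. The gap between treated and untreated arrays was wider than the spread of any group, and Exoc4 fell by 1.53 ± 0.17 in the knock-out (adjusted p = 0.018) and by 1.03 ± 0.17 in the wild type (adjusted p = 0.00893). Cdkal1, which modifies a base of a lysine tRNA, stood at 9.70, 9.50 and 10.93 in MMS-treated knock-out livers, against 11.77, 11.70 and 11.77 in untreated ones. It stood at 11.33, 11.11 and 11.19 in MMS-treated wild-type livers, against 12.05, 11.93 and 12.03 in untreated ones. No treated array reached an untreated one, treated knock-out arrays 1 and 2 were more than 1 unit below array 3, and Cdkal1 fell by 1.70 ± 0.29 in the knock-out (3.26-fold, adjusted p = 0.0331), while the wild-type value of -0.79 ± 0.29 did not pass (adjusted p = 0.128).

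Fto, an RNA demethylase related to the bacterial repair enzyme AlkB, stood at 8.46, 8.13 and 9.07 in MMS-treated knock-out livers, against 9.61, 9.63 and 9.69 in untreated ones. In the wild type it stood at 9.40, 8.95 and 9.40 after MMS, against 9.47, 9.60 and 9.79 untreated. Array 3 was again the highest of the treated knock-out arrays, and in neither genotype did the groups overlap. Fto fell by 1.09 ± 0.22 in the knock-out (2.13-fold, adjusted p = 0.044), and the wild-type value was -0.37 ± 0.22 (adjusted p = 0.34). Ube2e2, a ubiquitin-conjugating enzyme, had -0.42 ± 0.11 and -0.18 ± 0.11, neither called. Ext1, which elongates heparan sulfate chains, was on the other side, with 9.64, 9.53 and 9.01 in MMS-treated knock-out livers against 8.49, 8.46 and 8.94 in untreated ones. These groups did not overlap, but the difference of 0.76 ± 0.24 did not pass (adjusted p = 0.0994), and the wild-type value was 0.10 ± 0.24.

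Transcription regulators were mixed. Of 9 measured members 1 fell in the knock-out and 2 in the wild type, 0 rose (limma; 0 in the knock-out and 1 in the wild type higher at an unadjusted p under 0.05), and the medians were -0.52 and -0.28. Sox6, an HMG-box factor, stood at 5.91, 6.18 and 6.25 in MMS-treated knock-out livers, against 7.11, 6.94 and 7.01 in untreated ones. Wild-type livers had 7.10, 6.66 and 6.89 after MMS, against 6.94, 6.85 and 6.74 untreated. The knock-out groups were apart and the wild-type groups overlapped. Sox6 fell by 0.90 ± 0.14 in the knock-out (1.87-fold, adjusted p = 0.0297) and had 0.04 ± 0.14 in the wild type. Tcf4, a basic helix-loop-helix factor, stood at 9.73, 9.82 and 10.19 in MMS-treated knock-out livers, against 10.48, 10.38 and 10.67 in untreated ones. It stood at 9.84, 9.89 and 10.03 in MMS-treated wild-type livers, against 10.68, 10.51 and 10.76 in untreated ones. Both pairs of groups were apart, but only the wild-type decrease of 0.73 ± 0.15 passed (adjusted p = 0.0188), and the knock-out value of -0.59 ± 0.15 did not (adjusted p = 0.0617).

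Nfib, a nuclear factor I protein and the shortest gene of the set, stood at 8.91, 9.05 and 8.67 in MMS-treated knock-out livers, against 9.17, 8.93 and 9.20 in untreated ones, which overlap. In wild-type livers it stood at 8.40, 8.67 and 8.72 after MMS, against 9.40, 9.23 and 9.07 untreated. The wild-type groups did not overlap and Nfib fell by 0.64 ± 0.15 (adjusted p = 0.0325), while the knock-out value was -0.22 ± 0.15 (adjusted p = 0.385). Foxp1, a forkhead factor, was among the largest changes without passing, at -1.05 ± 0.25 in the knock-out (adjusted p = 0.0566) and -0.53 ± 0.25 in the wild type. Nfia, the relative of Nfib, had -1.04 ± 0.28 and -0.72 ± 0.28, and Cux1, a homeobox protein, -0.52 ± 0.17 and -0.28 ± 0.17, in the same order. Zbtb20, a zinc finger repressor that silences alpha-fetoprotein in adult liver, had 0.02 ± 0.16 in the knock-out and 0.45 ± 0.16 in the wild type (adjusted p = 0.117); it rose in the wild type after either scaling of the arrays to a common median and with array weights. Atxn1 and Auts2, both weakly expressed here, had 0.10 and -0.21 in the knock-out and 0.33 and 0.16 in the wild type, none called.

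Of the protein kinases, 1 of 3 fell in the knock-out and 0 in the wild type by limma, and 2 and 1 were lower at an unadjusted p under 0.05. Prkce, the epsilon isoform of protein kinase C, stood at 8.48, 8.60 and 8.67 in MMS-treated knock-out livers, against 9.71, 9.50 and 9.68 in untreated ones. The wild-type values were 9.24, 9.01 and 9.59 after MMS, against 9.50, 9.39 and 9.48 untreated. The knock-out groups were apart and the wild-type groups overlapped. Prkce fell by 1.04 ± 0.15 in the knock-out (2.06-fold, adjusted p = 0.0258) and had -0.18 ± 0.15 in the wild type (adjusted p = 0.511). Prkca, the alpha isoform, lay just outside the threshold in the knock-out, at -1.24 ± 0.27 (adjusted p = 0.0503), and had -0.66 ± 0.27 in the wild type. Prkg1, a kinase activated by cyclic GMP with 1200.8 kb of span, varied too much within groups to read, from 4.15 to 6.87 in MMS-treated knock-out livers and from 4.72 to 7.91 in untreated ones, with -0.69 ± 0.86 in the knock-out and -1.17 ± 0.86 in the wild type.

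Genes at common fragile sites in human cells fell only in part. Of 5 measured, 0 fell in the knock-out and 2 in the wild type, 0 rose in either, and at an unadjusted p under 0.05 in limma 4 were lower and 1 higher in the knock-out. Fhit, a hydrolase of diadenosine triphosphate with 1612.0 kb of span, stood at 8.89, 9.19 and 9.09 in MMS-treated knock-out livers, against 9.46, 9.10 and 9.83 in untreated ones. In the wild type it stood at 8.64, 9.01 and 8.80 after MMS, against 9.81, 9.60 and 9.80 untreated. The wild-type groups were apart and Fhit fell by 0.92 ± 0.18 (1.89-fold, adjusted p = 0.0183), while the knock-out groups overlapped, with -0.41 ± 0.18 (adjusted p = 0.195). Wwox, a WW-domain oxidoreductase, stood at 7.56, 7.37 and 7.74 in MMS-treated knock-out livers, against 7.87, 7.71 and 8.07 in untreated ones. It stood at 7.31, 7.04 and 7.26 in MMS-treated wild-type livers, against 7.76, 7.75 and 7.89 in untreated ones. The wild-type groups were apart and Wwox fell by 0.60 ± 0.14 in the wild type (adjusted p = 0.0327), and the overlapping knock-out groups gave -0.33 ± 0.14 (adjusted p = 0.176).

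Dmd, which encodes dystrophin and is the longest gene of the set, stood at 9.39, 9.13 and 9.45 in MMS-treated knock-out livers, against 10.03, 10.02 and 9.70 in untreated ones. Wild-type livers had 9.38, 9.06 and 9.39 after MMS, against 9.55, 9.63 and 9.22 untreated. The knock-out groups were apart without passing the test, at -0.60 ± 0.16 (adjusted p = 0.0727), and the wild-type groups overlapped, at -0.19 ± 0.16. Dpyd, which degrades uracil and thymine, had -0.37 ± 0.12 and -0.22 ± 0.12, neither called. Macrod2, which removes ADP-ribose from proteins and spans 1997.7 kb, stood at 8.51, 8.79 and 8.21 in MMS-treated knock-out livers, against 7.63, 7.40 and 8.34 in untreated ones. It stood at 7.59, 8.33 and 7.80 in MMS-treated wild-type livers, against 8.32, 8.27 and 8.46 in untreated ones. The values of both pairs overlapped, and the changes of 0.71 ± 0.26 in the knock-out (adjusted p = 0.125) and -0.45 ± 0.26 in the wild type (adjusted p = 0.331) did not pass.

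**Figure D2:**
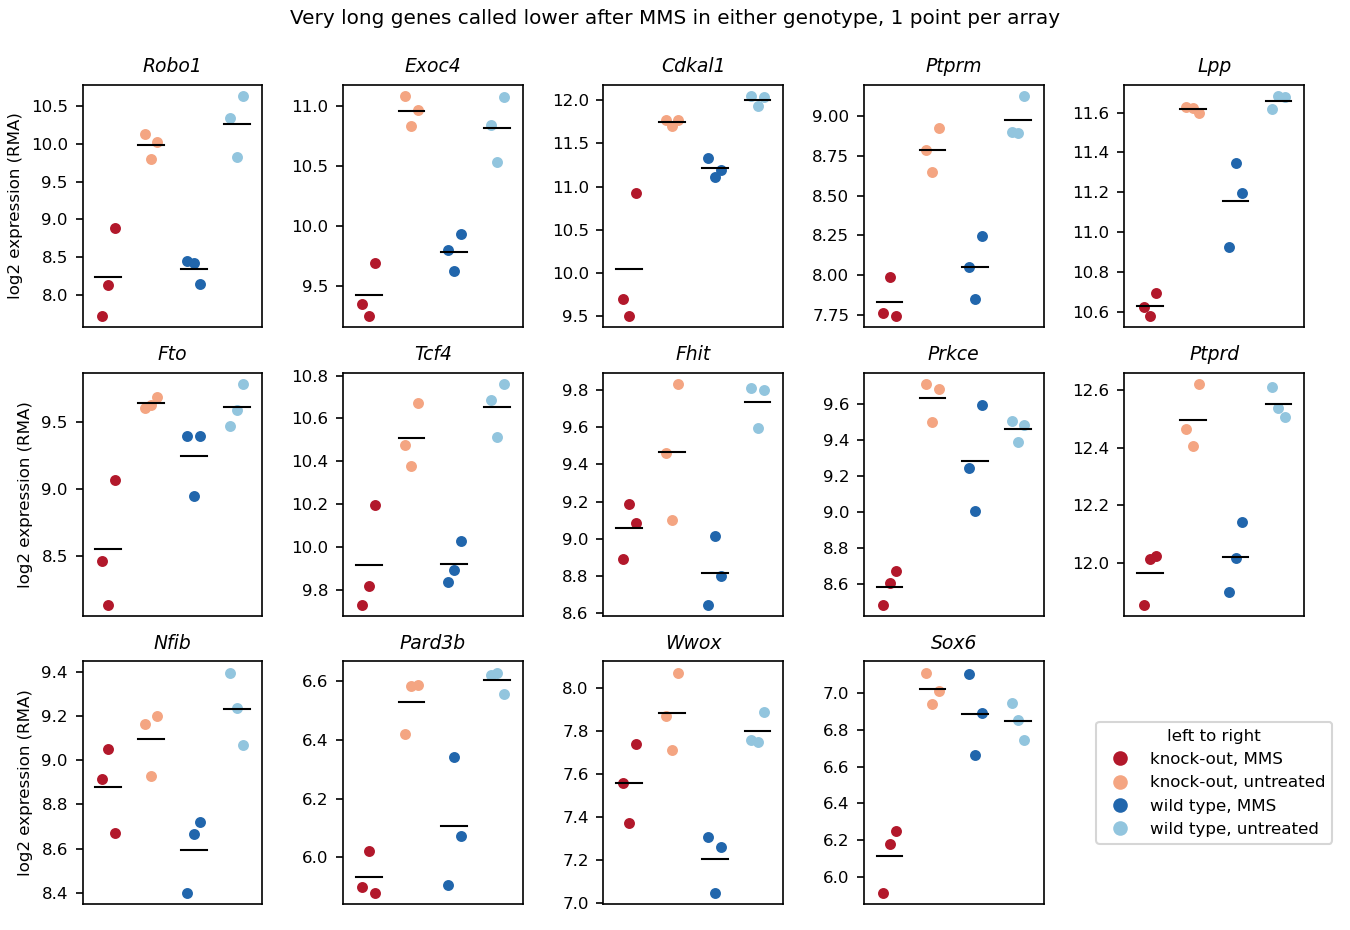
Log2 expression of the 14 very long genes called lower after MMS in either genotype, 1 point per array, with the groups from left to right MMS-treated Aag knock-out, untreated Aag knock-out, MMS-treated wild type and untreated wild type. Treated and untreated points do not overlap in either genotype for Robo1, Exoc4, Ptprm, Ptprd, Lpp and Pard3b, while for Sox6 and Prkce they are apart in the knock-out and overlap in the wild type.

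Members were divided at a log2 mean of 8.27, the median over all genes, into 21 well and 10 weakly expressed members, with Ptprm (8.41) just above and Macrod2 (8.14) just below. Probe sets differ in how strongly they bind, so this is a rule on signal and not a ranking of genes. Among well expressed members 8 of 21 fell in each genotype (1.05% of all well expressed genes in the knock-out and 6.60% in the wild type), with medians of -0.60 and -0.50, beside 0.04 and -0.06 over all well expressed genes. Among weakly expressed members 2 of 10 fell in each, Pard3b in both with Sox6 in the knock-out and Wwox in the wild type (0.581% and 4.05% of all weakly expressed genes). Their medians were -0.41 and -0.44, beside -0.17 and -0.06 over all weakly expressed genes. These 2 medians moved with the setting: the knock-out one was -0.22 without untreated knock-out array 3, -0.27 without treated knock-out array 1 and -0.20 without treated knock-out arrays 1 and 2. The wild-type one was -0.27 without treated wild-type array 1, -0.22 with all probe sets averaged per gene, -0.12 with the second-highest probe set and -0.0066 with the expression minimum at the 25th percentile. Whether the well and weakly expressed members differ was not tested. Within the set, length had little relation to the change: the Pearson r of change with log10 span was 0.03 in the knock-out and -0.19 in the wild type over 31 genes on the same arrays.

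Probe sets of the same gene can read different transcripts, and 21 of the measured members had several. The 49 probe sets not chosen had the same sign as the chosen one in 41 cases in the knock-out and 36 in the wild type, and their median change was -0.43 and -0.39. By limma 8 of the 49 fell in the knock-out, where 0.760% of all probe sets fell and 0.747% rose, and 11 fell in the wild type, where 4.45% fell and 1.99% rose. For Exoc4 the probe set with the second-highest mean had -1.62 ± 0.16 in the knock-out and -1.13 ± 0.16 in the wild type. In Lpp a dimmer probe set had 0.08 ± 0.23 in the knock-out (adjusted p = 0.844), against the decrease at the chosen one. Magi1 in the knock-out had 0.24 ± 0.16 at the chosen one and -1.23 ± 0.22 at another (adjusted p = 0.361 and 0.0365).

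Length was then followed over all 12377 genes with a known span. Among well expressed genes the median change in the knock-out was 0.13 under 10 kb, 0.08 at 10 to 30 kb, -0.02 at 30 to 100 kb, -0.19 at 100 to 200 kb, -0.41 at 200 to 500 kb and -0.74 over 500 kb. The same lengths in the wild type gave -0.04, -0.04, -0.09, -0.20, -0.28 and -0.72. Without treated knock-out arrays 1 and 2 the knock-out medians were 0.13, 0.13, 0.03, -0.09, -0.24 and -0.52, in the same order of length. Of the 31 well expressed genes over 500 kb, 12 fell in the knock-out (38.7%) and 13 in the wild type (41.9%). None of them was higher in either (limma; at an unadjusted p under 0.05, 0 and 1 higher). Of all well expressed genes 1.05% fell in the knock-out and 6.60% in the wild type. Of these 31 genes 14 are members, which gave 6 of the 12 calls in the knock-out and 6 of the 13 in the wild type, and the 17 others had medians of -0.74 in the knock-out and -0.89 in the wild type. Weakly expressed genes had knock-out medians of -0.15, -0.12, -0.16, -0.22, -0.34 and -0.30 in the same order of length. Their wild-type medians were 0.0035, -0.03, -0.12, -0.19, -0.16 and -0.23, so neither genotype went down at every step. Over 500 kb the knock-out median of weakly expressed genes was -0.05 without treated knock-out arrays 1 and 2. Without MMS, well expressed genes over 500 kb differed between genotypes by a median of -0.06, the same as those under 10 kb. Over all genes the Pearson r of change with log10 span was -0.17 in the knock-out and -0.15 in the wild type, a description across genes that share arrays.

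**Figure D3:**
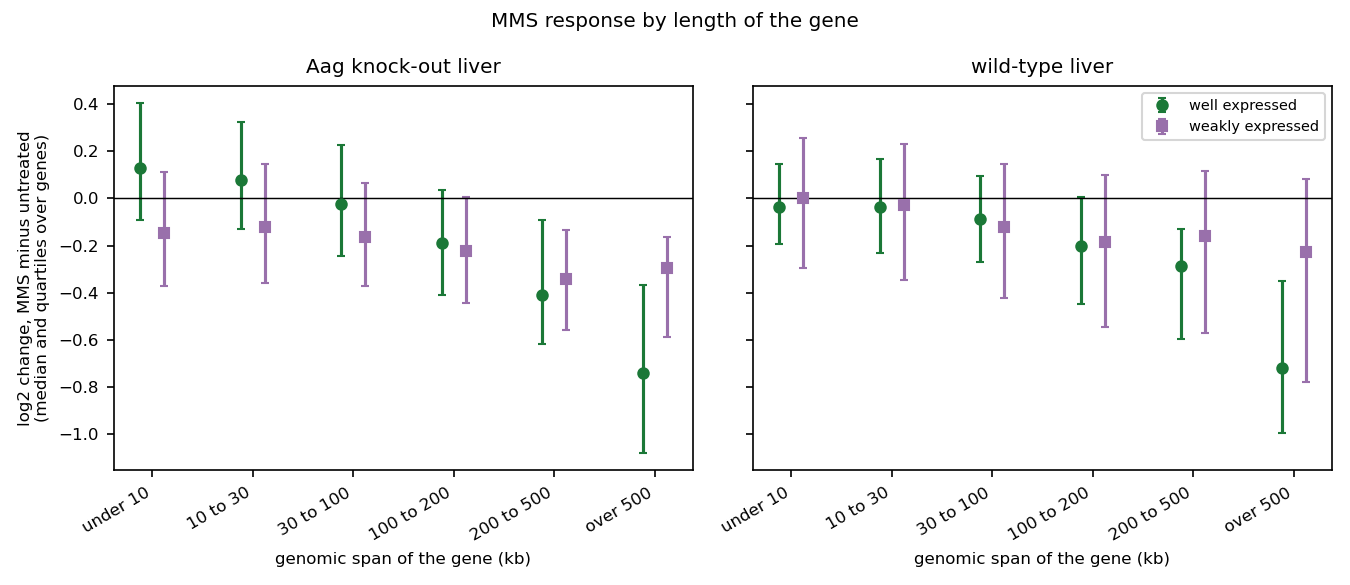
Median log2 change after MMS (points, with quartiles over genes) by genomic span, for well and weakly expressed genes, in Aag knock-out and wild-type liver. Among well expressed genes the median goes down with length in both genotypes, ending at -0.74 in the knock-out and -0.72 in the wild type over 500 kb.

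Of the 524 other genes of at least 200 kb, 33 fell in the knock-out (6.30%) and 65 in the wild type (12.4%) by limma. Of all genes 0.815% fell in the knock-out and 5.33% in the wild type. Of the 524, 0 and 1 rose (limma; 3 and 23 higher at an unadjusted p under 0.05), and their medians were -0.36 and -0.24. Without treated knock-out arrays 1 and 2 the knock-out median was -0.13, and 0 of the 524 were called, with 65 lower and 4 higher at an unadjusted p under 0.05. With the members included, the median of all 555 genes of at least 200 kb was -0.37 in the knock-out, -0.22 without treated knock-out array 1 and -0.14 without arrays 1 and 2. Of these 555 genes 43 were called lower in the knock-out and 75 in the wild type, and 0 to 121 and 23 to 89 with single arrays left out. Among the 524 other genes the largest called decreases in the knock-out were those of Gpm6a, a neuronal membrane glycoprotein (-1.91 ± 0.33), Trio (-1.38 ± 0.16), Dock1, an exchange factor for Rac (-1.32 ± 0.17), Rabgap1l (-1.31 ± 0.23) and Lrba (-1.18 ± 0.19). In the wild type they were those of Grk5, a kinase of G protein-coupled receptors (-2.75 ± 0.43), Gpm6a (-2.54 ± 0.33), Pkhd1, the fibrocystin gene (-2.06 ± 0.23), Syne1, a nuclear envelope protein (-1.97 ± 0.22), and Arhgap24 (-1.94 ± 0.24). Gpm6a is common to both lists. The gene that rose in the wild type was Grin2a, a glutamate receptor subunit (0.71 ± 0.15), at a low log2 mean of 4.29, and in the knock-out Aopep (0.59 ± 0.19) and Palld (0.54 ± 0.22) came nearest without passing.

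Array by array, the median over the members of the log2 value minus each gene's mean was -0.40, -0.36 and -0.18 in MMS-treated knock-out livers, against 0.26, 0.17 and 0.36 in untreated ones. It was -0.26, -0.12 and -0.08 in MMS-treated wild-type livers, against 0.26, 0.22 and 0.27 in untreated ones. All 6 treated arrays were below 0 and all 6 untreated arrays above it. For the other genes of at least 200 kb it was -0.42, -0.18 and 0.03 in MMS-treated knock-out livers, against 0.05, 0.14 and 0.29 in untreated ones, so array 3 was not below 0. The same median over genes under 200 kb stayed between -0.07 and 0.06 in every array. Knock-out arrays 1 and 2, with the small 3′ minus 5′ signal, had the lowest values, and the third treated knock-out array, whose 3′ minus 5′ signal was 2.46, was also below every untreated array. With that signal as a covariate the median of the members was -0.45 in the knock-out and 0 members passed, with 18 lower and 0 higher at an unadjusted p under 0.05. What part, if any, RNA quality has in the knock-out response was not tested.

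**Figure D4:**
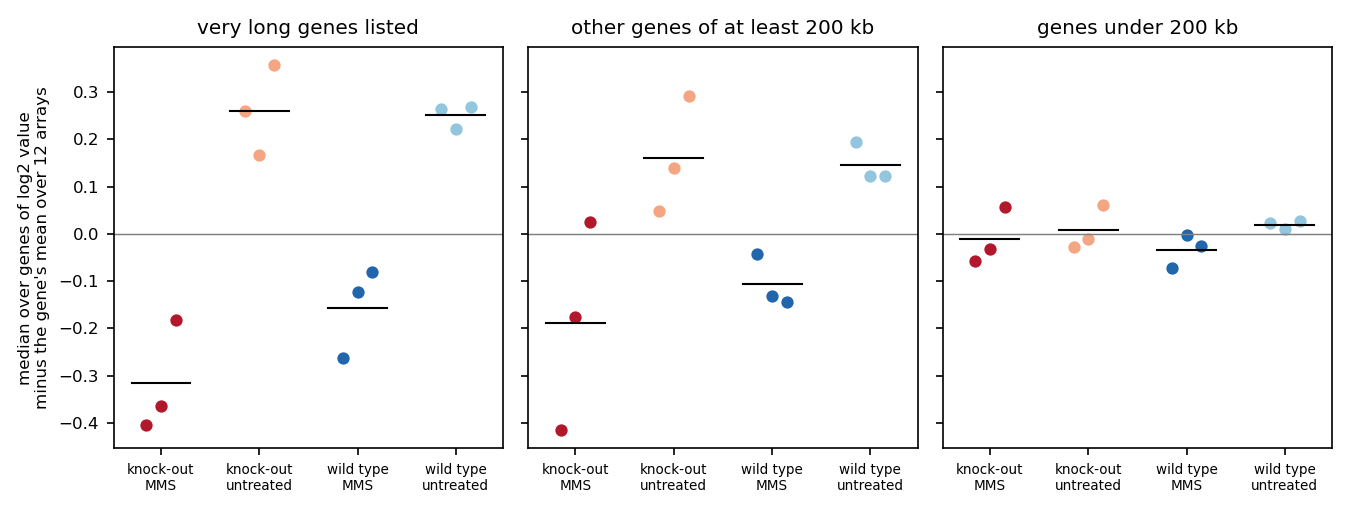
Median over genes of the log2 value minus the gene's mean over 12 arrays, 1 point per array, for the very long genes, the other genes of at least 200 kb and genes under 200 kb, with MMS-treated groups left of their untreated groups. For the very long genes all treated arrays lie below 0 and all untreated arrays above it; for the other genes of at least 200 kb treated knock-out array 3 lies at 0.03, and genes under 200 kb stay between -0.07 and 0.06.

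The comparison of genotypes asked whether Aag changes the level of very long genes or their response. Without MMS 0 of 31 members differed in limma between knock-out and wild-type livers (0.0161% of all genes lower and 0.0323% higher). Their median difference was -0.04, beside -0.02 over all genes. At an unadjusted p under 0.05 in limma, 0 were lower and 1 higher, beside 485 and 415 of all genes. The 1 was Dmd, at 9.92 ± 0.19 in untreated knock-out livers and 9.47 ± 0.22 in untreated wild-type livers (SD, n = 3 each), a difference of 0.46 ± 0.16 (limma adjusted p = 0.563). After MMS 0 of 31 passed as well (0.00807% of all genes lower and 0.00807% higher). At an unadjusted p under 0.05 in limma, 7 members were lower and 2 higher, beside 939 and 1478 of all genes. The median of the members was -0.24, beside 0.03 over all genes. Sox6 had the smallest p there, at 6.11 ± 0.18 in MMS-treated knock-out livers and 6.88 ± 0.22 in MMS-treated wild-type livers (SD, n = 3 each), a difference of -0.77 ± 0.14 (limma adjusted p = 0.0793). Prkce followed with -0.69 ± 0.15 (adjusted p = 0.0939).

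The response in the knock-out minus that in the wild type was negative for 22 of 31 members, with a median of -0.23, beside 5553 of all 12393 genes (44.8%) and a median of 0.06. By limma 0 members passed, as did 0 of all genes (0% lower and 0% higher), and 5 members were lower and 1 higher at an unadjusted p under 0.05, beside 959 and 1331 of all genes. Sox6 had -0.94 ± 0.20 (adjusted p = 0.104) and Prkce -0.87 ± 0.21 (adjusted p = 0.13). Macrod2 had the largest positive value, 1.16 ± 0.36 (adjusted p = 0.175). For Robo1 the difference was 0.18 ± 0.40, with a 95% interval of -0.69 to 1.05, and for Ptprm -0.03 ± 0.20, with an interval of -0.47 to 0.41. Without treated knock-out array 3, 6 members passed as lower in the treated genotypes and 1, Cdkal1, in the difference of the responses, against 0 in each with all arrays. That fit keeps treated knock-out arrays 1 and 2, which had the small 3′ minus 5′ signal. Without those 2 arrays the median response of the members in the knock-out was -0.43, beside -0.45 in the wild type. The knock-out response was then -0.77 for Sox6 and -0.96 for Prkce.

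Factors that carry polymerase II along genes were described beside the members. Of 36 measured genes of elongation, chromatin passage and topoisomerases 0 changed in the knock-out (limma; 3 lower and 8 higher at an unadjusted p under 0.05), and in the wild type 2 fell (5.56%) and 1 rose (2.78%). Those wild-type shares lie near the shares of all genes, 5.33% lower and 2.20% higher. Hexim1, which holds the elongation kinase P-TEFb inactive, fell by 0.74 ± 0.17 and Aff1, a scaffold of the super elongation complex, by 0.56 ± 0.14, while Ell, an elongation factor of that complex, rose by 0.96 ± 0.23. Their medians were 0.09 in the knock-out and -0.01 in the wild type. Polr2a, the catalytic subunit of polymerase II, had 0.05 ± 0.13 and -0.19 ± 0.13, and Top2b, the topoisomerase of non-dividing cells, -0.54 ± 0.21 and -0.17 ± 0.21, none called. Among 13 genes of transcription-coupled repair, which clears lesions that stall the polymerase, 1 rose in the knock-out and 0 changed in the wild type (limma). Of all genes 0.888% rose in the knock-out. At an unadjusted p under 0.05 in limma, 0 were lower and 5 higher in the knock-out. In the wild type 0 were lower and 0 higher at that p. The called gene was Xpa, which verifies the damage, at 1.21 ± 0.25 in the knock-out (adjusted p = 0.0465) and 0.51 ± 0.25 in the wild type. The medians of the list were 0.19 and 0.24.

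Markers of other liver cells moved in the wild type beside the members. Of 14 stellate cell and fibroblast markers 0 fell in the knock-out and 4 in the wild type (Col1a1, Col1a2, Col3a1 and Lum), with a mean log2 level of 8.734 to 9.004 in MMS-treated knock-out livers, against 8.89 to 8.92 untreated, and of 8.33 to 8.54 in MMS-treated wild-type livers, against 8.87 to 9.58 untreated. Of 14 endothelial markers 1 fell in the knock-out (Oit3, -0.78 ± 0.14) and 5 in the wild type (Kdr, Tek, Cdh5, Stab2 and Oit3), and the level was 8.777 to 9.002 in MMS-treated knock-out livers, against 8.87 to 9.05 untreated, and 8.60 to 8.67 in MMS-treated wild-type livers, against 8.99 to 9.17 untreated. The wild-type ranges of both lists were apart, while those of the knock-out overlapped. Medians were 0.06 and -0.21 in the knock-out for stellate and endothelial markers, beside -0.51 and -0.36 in the wild type. What part these cells have in the values of the members was not tested in either genotype.

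Of 10 macrophage markers 0 changed in the knock-out, and in the wild type Adgre1 fell and Marco rose, with levels of 10.33 to 10.78 and 10.18 to 10.48 in treated and untreated knock-out livers, and 9.77 to 10.30 and 9.89 to 10.45 in treated and untreated wild-type livers. Of 10 lymphocyte markers Cd3e and Cd79b fell in the wild type and 0 changed in the knock-out, with levels of 6.32 to 6.59 and 6.54 to 6.93 in treated and untreated knock-out livers, and 5.79 to 5.99 and 6.47 to 6.68 in treated and untreated wild-type livers. Krt19, a bile duct keratin, rose by 1.90 ± 0.40 in the knock-out, 1 of 8 cholangiocyte markers, and Cdh1 fell by 1.27 ± 0.14 in the wild type. The level of that list was 7.14 to 8.45 in MMS-treated knock-out livers, against 6.97 to 7.15 untreated, and 6.75 to 7.24 in MMS-treated wild-type livers, against 7.004 to 7.317 untreated. Of 9 cycling cell markers Tk1 fell by 1.76 ± 0.26 in the wild type and 0 changed in the knock-out, with medians of 0.04 in the knock-out and -1.17 in the wild type. The level of that list was 8.12 to 8.58 in MMS-treated knock-out livers, against 8.13 to 8.51 untreated, and 7.98 to 8.11 in MMS-treated wild-type livers, against 8.29 to 9.89 untreated. Already without MMS all 9 cycling cell markers were lower in the knock-out than in the wild type, with a median of -0.73. Of these 6 had an unadjusted p under 0.05 by limma and 0 passed after adjustment. At an unadjusted p under 0.05 by limma, the knock-out held 2 lower and 1 higher for macrophages, 2 and 0 for lymphocytes, 2 and 2 for cholangiocytes, 0 and 0 for cycling cells, 3 and 3 for stellate cells and 4 and 3 for endothelial cells. The wild type held 4 lower and 1 higher for macrophages, 7 and 0 for lymphocytes and 2 and 0 for cholangiocytes. It held 7 and 0 for cycling cells, 8 and 0 for stellate cells and 6 and 0 for endothelial cells. After adjustment 0.815% of all genes were called lower and 0.888% higher in the knock-out, and 5.33% and 2.20% in the wild type.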

How the data were processed

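Liver RNA of 12 mice, 3 in each of 4 groups, was measured on Affymetrix arrays, and the deposited table holds 1 log2 value per probe set and array, made by the authors with RMA per the submitters' processing notes. For its version and chip definition: not given in the sources used here. RMA normally equalises arrays that are processed together, so a shift of most genes together can be lost. Here the array medians still ran from 7.42 to 7.75, so offsets between arrays can remain in the reported changes. Which arrays were normalized together is not stated in the labels. Base 2 was inferred from what RMA normally returns and from the values' range (2.21 to 14.88), and no detection call came with the values.

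Of 22690 probe sets, 64 controls were set aside and 22626 tested. The platform annotation gave 1 symbol for 20380, several for 691 and none for 1555, and 20359 matched a RefSeq gene table (GRCm38.p6) used for names and spans. The members, lists, role groups and tests were chosen with earlier results of these data known.

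Contrasts were fitted with limma 3.58.1 under R 4.3.3, giving each group its own mean, with moderated variances and Benjamini-Hochberg adjustment over all 22626 probe sets at 0.05. The script was tested on simulated data. Titles name separate animals, and the shared animal numbers are not said to mark a litter, day or batch. Members were given with values where they passed in a contrast, were among the 6 smallest p or 6 largest changes of well expressed members in a response, or among the 5 longest spans; the others carry their change. For other genes of at least 200 kb, the 5 largest called, non-overlapping changes per response and direction were named, or the 2 smallest p. In other lists, called genes and up to 4 with the smallest p could be named, and Polr2a and Top2b were named after their values were seen. Alternatives were filters, scalings, variance models, weighting of arrays, blocking on animal number, a quality covariate, probe set choices and leaving out arrays.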

Additional observations from a re-analysis of the deposited data

Results flagged for a closer look

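Probe sets of the members other than the chosen one entered no count of members, and of these 49 probe sets 8 were called lower in the knock-out and 11 in the wild type by limma, with 0 called higher in either. At an unadjusted p under 0.05, 22 were lower and 0 higher in the knock-out, and 21 lower and 2 higher in the wild type. In knock-out liver the log2 changes were -1.13 for Dmd, -0.87 and -1.62 for Exoc4, -1.02 for Foxp1, -0.74 for Lpp, -1.23 for Magi1, -1.12 for Ptprd and -1.53 for Ptprk. In wild-type liver they were -0.85 for Dmd, -1.09 and -1.13 for Exoc4, -0.96 for Foxp1, -0.72 for Lpp, -0.89 for Nfib, -0.84 and -0.7 for Ptprd, -0.93 for Ptprk and -0.7 and -1.33 for Wwox. Dmd, Foxp1 and Ptprk were called in both genotypes at such a probe set and in neither at the chosen one, and Magi1 in the knock-out alone.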

How the results depend on the processing

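Over the alternatives, 414 of the counts and medians stayed close to the reported value and 112 moved, and the direction of the members' median was negative in all of them. Many of these values could not move. Leaving out an array of 1 genotype keeps the medians of the other, another variance model keeps all medians, and 0 against 0 calls counted as close. The tally is therefore no measure of stability. With 3 arrays a group the adjusted calls depended on the setting, more in the knock-out than in the wild type, and the cause was not tested. Relative to the median of all genes, the members' median lay between -0.64 and -0.44 in the knock-out (-0.53 as reported) and between -0.44 and -0.30 in the wild type (-0.38 as reported). Centring the arrays moved the median of all genes to -0.13 in the knock-out and 0.13 in the wild type. The values carry no detection call, and weakly expressed members rest on signal near the low end.

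With single arrays left out, members called lower ran from 0 to 18 in the knock-out and from 3 to 12 in the wild type, and members called higher from 0 to 1 in the knock-out. The knock-out medians ran from -0.66 to -0.50 for the members, -0.71 to -0.56 for well and -0.52 to -0.22 for weakly expressed members, and -0.50 to -0.22 for all genes of at least 200 kb, and 0 to 121 of those genes were called lower. In the wild type the weakly expressed median ran from -0.54 to -0.27, and 23 to 89 genes of at least 200 kb were called lower. Members lower in treated knock-out than treated wild-type livers ran from 0 to 6, and members lower in the difference of responses from 0 to 1.

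In the knock-out, where 10 members and 43 genes of at least 200 kb were called lower as reported, trended variance gave 16 and 73, array weights 19 and 161 with 2 members higher, leaving out both arrays numbered 3 gave 17 and 109 with 2 higher, and fitting only those 2 groups gave 0 and 0. The quality covariate gave 0 and 0, with medians of -0.45 for members, -0.47 for well and -0.29 for weakly expressed ones and -0.22 for the long genes. Long genes called numbered 78 with probe sets at or above the median level, 74 above the 25th percentile and 66 after quantile normalization, where the well expressed median was -0.71. For the wild type, those settings gave a long-gene median of -0.40 under each level filter, and after quantile normalization -0.29 for members and -0.29 for weakly expressed ones. Centring gave 5 wild-type members lower and 1 higher, medians of -0.25 for members, -0.31 for well and -0.25 for weakly expressed ones and -0.069 for long genes, of which 47 were called. Array weights gave 1 wild-type member higher and 151 long genes lower.

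Members lower in treated knock-out than treated wild-type livers numbered 2 and 1 with the level filters, 7 with weights and 6 without both arrays numbered 3. The difference of responses had 5 lower and 2 higher with weights, and 1 lower and 1 higher without those arrays. The mean of probe sets gave a wild-type weakly expressed median of -0.22, and the second-highest probe set -0.12, with -0.65 for well expressed members. A span minimum of 500 kb gave a wild-type long-gene median of -0.44. With the expression minimum at the median of all probe sets the weakly expressed medians were -0.52 in the knock-out and -0.31 in the wild type, and at the 25th percentile -0.29 and -0.0066. At the 75th percentile the weakly expressed knock-out median was -0.60 and the well expressed wild-type median -0.28. Lpp in the knock-out changed sign at its second-highest probe set, to 0.085 (adjusted p = 0.844).

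Settings chosen after seeing the data were 2. Without treated knock-out arrays 1 and 2, 0 members and 0 long genes were called lower in the knock-out, with medians of -0.43 for members, -0.47 for well and -0.20 for weakly expressed ones and -0.14 for long genes. With arrays shifted to a common median of genes under 200 kb, the knock-out had 16 members and 88 long genes lower, with medians of -0.74, -0.74, -0.55 and -0.51 for members, well, weakly expressed ones and long genes, and the wild type had 5 members lower, 1 higher and 49 long genes lower, with medians of -0.29, -0.35, -0.29 and -0.11.

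Same-numbered animals did not deviate together throughout, with correlations of 0.40, 0.01 and 0.28 in the knock-out and 0.18, -0.11 and 0.18 in the wild type, so the numbers were not taken as pairs. The replicate block gave 3 members and 6 long genes called lower in the knock-out, and 9 members in the wild type.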
